A study of Mus musculus with 6 samples.

Results

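The interleukin 1 system was followed through 9 genes, chosen by symbol from the 33456 genes of the count tables: Il1b, Il1a, Il1rn, Il1r2, Nlrp3, Casp1, Pycard, Il18 and Il18bp. Each symbol stood on exactly 1 row, so all 9 were found. Cells came from visceral (epididymal) fat of mice, digested with collagenase and sorted for CD45, carried by leukocytes, and for CD11b, carried by most myeloid cells. There were 3 samples from mice on a control diet and 3 from mice on the diet labelled HFD (high-fat diet). Genotype, strain, sex, age and length of the diet are not given in the sources used here, and neither is the number of animals behind a sample. The p-values thus speak only for the spread among the 6 samples, part or all of which may be technical.

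Interleukin 1 beta and interleukin 1 alpha are inflammatory cytokines that act through the same receptor. The receptor antagonist encoded by Il1rn occupies that receptor without signalling, and the decoy receptor encoded by Il1r2 binds the cytokines without signalling, so both restrain the pathway. Interleukin 1 beta and interleukin 18 are made as inactive precursors. They are cut by caspase 1 (Casp1) in the inflammasome, a complex built by a sensor such as NLRP3 and the adaptor ASC (Pycard), and free interleukin 18 is captured by its binding protein (Il18bp). In fat tissue the pathway is known mainly from macrophages and monocytes. Messenger RNA reports neither the cut nor the release of these proteins.

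Cell barcodes were shared widely between the 6 count tables. Of 2195 distinct barcodes, 1082 (49.3%) were listed in several samples and 370 in all 6. Seen per sample, 79.9%, 90.2% and 83.3% of the barcodes of control samples 1 to 3 were shared. In HFD samples 1 to 3 it was 62.4%, 83.2% and 72.6%. A barcode was therefore counted once, in the sample that gave it the most unique molecular identifiers (UMIs, counted RNA molecules). This left 986 control and 1128 HFD cells after filters, with 260 to 388 cells and 1997647 to 3874349 UMIs per control sample and 295 to 453 cells and 3587086 to 5708323 UMIs per HFD sample. The cells fell into 17 clusters, formed without the 9 genes. Besides macrophage-like, dendritic and monocyte-like cells they held 231 fibroblast-like cells, of which 207 were HFD cells. The CD45 gene Ptprc was detected in 12.6% of fibroblast-like and 70.6% of macrophage-like cells, and the CD11b gene Itgam in 7.36% and 59.3% (median depths 6823 and 9410 UMIs). The summed level of the 8 fibroblast markers was 950 to 2159 CPM (a gene's UMIs scaled to a sample total of 1e6) in control and 6283 to 7317 CPM in HFD samples.

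Il1b (ENSMUSG00000027398) was the most counted of the 9 genes, with 22060 UMIs in all. It was lower in every HFD sample. Control samples 1 to 3 stood at 1545, 1695 and 1532 CPM and HFD samples 1 to 3 at 486, 628 and 771 CPM. The 2 diets did not overlap, and the mean of 1591 ± 90.9 CPM in control was 2.53-fold that of 628 ± 143 CPM in HFD (SD, n = 3 each). The log2 fold change, HFD minus control, was -1.48 ± 0.16 SE (edgeR quasi-likelihood test, adjusted p = 0.000346 over 10450 genes). It kept this direction and the call in all 14 alternative fits, from -1.66 to -0.80. In bulk sums of this kind, fewer cells that carry a gene and less RNA of it per cell cannot be told apart.

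The other cytokine gene, Il1a (ENSMUSG00000027399), had only 595 UMIs. Its control samples stood at 57.6, 61.6 and 22.5 CPM and its HFD samples at 7.01, 26.8 and 11.4 CPM. Control 3 lay below HFD 2, so the diets overlapped. The log2 fold change was -1.86 ± 0.49 SE (adjusted p = 0.0186), but dropping any of control 1, control 2, HFD 1 and HFD 3 ended the call (adjusted p = 0.0550 to 0.0686).

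Il1rn and Il1r2, which restrain interleukin 1 itself, were lower in HFD sums too. The antagonist gene Il1rn (ENSMUSG00000026981; 2708 UMIs) stood at 116, 186 and 165 CPM in control and at 122, 73.6 and 104 CPM in HFD samples, so HFD 1 lay above control 1. Its log2 fold change was -0.77 ± 0.21 SE (adjusted p = 0.0204). Dropping control 2, HFD 2 or HFD 3 ended the call (adjusted p = 0.0703, 0.0599 and 0.0502), as did a block for the replicate number (adjusted p = 0.0713). The decoy receptor gene Il1r2 (ENSMUSG00000026073; 208 UMIs) was at 18.1, 11.01 and 16.6 CPM in control and at 6.66, 3.35 and 4.62 CPM in HFD samples. Here the diets did not overlap, and the log2 fold change was -1.77 ± 0.28 SE (adjusted p = 0.00197).

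The 3 inflammasome components did not move together. The sensor gene Nlrp3 (ENSMUSG00000032691; 1687 UMIs) stood at 104, 105 and 102 CPM in control and at 48.0, 58.5 and 69.3 CPM in HFD samples, and fell by 0.96 ± 0.14 SE on the log2 scale (adjusted p = 0.00114). All HFD values lay below all control values. The protease gene Casp1 (ENSMUSG00000025888; 1340 UMIs) stood the other way round, at 55.2, 43.6 and 47.2 CPM in control and 64.3, 66.3 and 67.3 CPM in HFD samples. Every HFD sample lay above every control sample, but the log2 fold change of 0.28 ± 0.12 SE did not pass the test (adjusted p = 0.0900). It passed in 3 of 14 alternatives. They were scaling by library totals alone (0.43, adjusted p = 0.0173), no fibroblast-like cells (0.39, adjusted p = 0.0339) and no control 1 (0.42, adjusted p = 0.0234). Control 1 was the highest control sample. The lowest value was 0.095, with all entries as deposited (adjusted p = 0.368). The adaptor gene Pycard (ENSMUSG00000030793; 4884 UMIs) was at 270, 268 and 191 CPM in control and 194, 194 and 215 CPM in HFD samples (log2 fold change -0.42 ± 0.15 SE, adjusted p = 0.0574). Control 3 lay below all HFD samples, and without it Pycard was called lower (-0.57, adjusted p = 0.00249).

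The interleukin 18 arm did not pass the test. Il18 (ENSMUSG00000039217; 469 UMIs) ranged from 14.4 to 29.4 CPM in control and from 17.5 to 23.5 CPM in HFD samples (log2 fold change -0.30 ± 0.26 SE, adjusted p = 0.412). Il18bp (ENSMUSG00000070427; 250 UMIs) ranged from 4.00 to 13.2 CPM and from 10.7 to 16.5 CPM (0.48 ± 0.39 SE, adjusted p = 0.374). Control 1 decided its value, since without that sample the log2 fold change was 1.27 (adjusted p = 0.0250).

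Thus 5 of 9 members were called, all lower in HFD, where the same fit called 32.4% of all genes, 15.2% higher and 17.2% lower. With all entries as deposited, in which a shared barcode counts in several samples, 6 of 9 were called lower, Pycard being added, where 26.1% of all genes were called, 12.6% higher and 13.5% lower. Scaling by library totals alone shifted the median log2 fold change of all genes from -0.02 to 0.13, and all 9 members kept their direction. The diets also differed in the cells themselves. Summed classical monocyte markers were at 469 to 989 CPM in control and 282 to 350 CPM in HFD, and summed markers of type 2 conventional dendritic cells (cDC2) at 1178 to 1426 and 560 to 625 CPM. Summed neutrophil markers were at 47.9 to 433 and 39.2 to 131 CPM. The 19 immediate early genes, which also respond to handling of tissue, summed to 16165 to 18343 CPM in control and 15337 to 15954 CPM in HFD samples, and 12 of the 19 were called lower. Their part in the falls of Il1b, Il1rn and Nlrp3 was not tested.

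**Figure D1:**
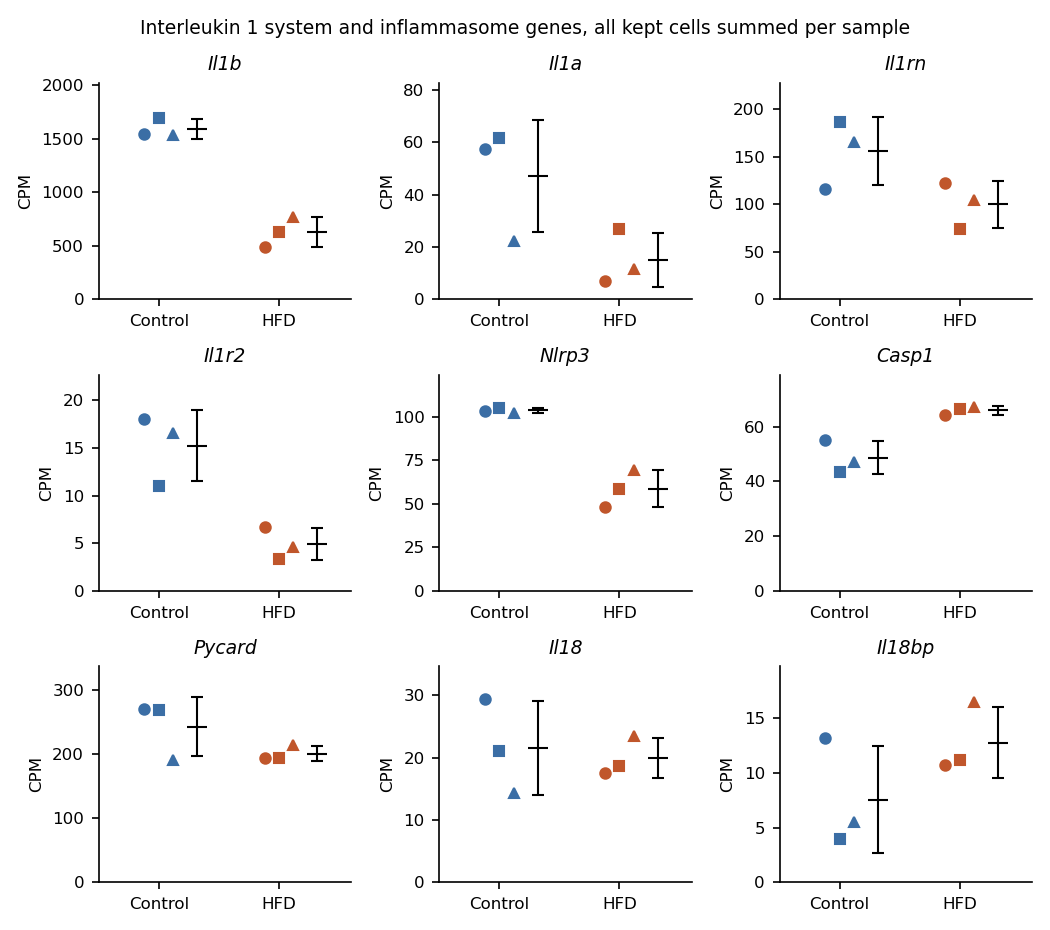
CPM of the 9 genes in all kept cells summed per sample, control in blue and HFD in orange, with circles, squares and triangles for samples 1, 2 and 3 and the black mark for mean and SD of 3 samples. Il1b, Il1r2 and Nlrp3 were lower in every HFD sample, Casp1 was higher in every HFD sample, and the diets overlapped for the other 5 genes. How many of all genes separate the diets in this way was not counted, and the fit of these sums called 32.4% of all genes.

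Il1b, Il1a and Il1rn lie on mouse chromosome 2 and were called lower together, so the bases before their start sites are shown. Windows are the 250 bases before each start from RefSeq (build GRCm38.p6), which holds 12 windows for the 9 genes. The count tables themselves hold no positions, and the submitters' processing notes list the older build mm9. Capitals mark 2 motifs, each searched on both strands. The core promoter box, searched as TATAAA, was found in 12.4% of 32851 windows. The site of AP-1, a dimer of Fos and Jun proteins, was searched as TGANTCA and was found in 6.75%. The 2 motifs share no letters where both occur. The 2 cytokine genes are on the minus strand and Il1rn on the plus strand.
Il1b, chr2:129371140-129371389: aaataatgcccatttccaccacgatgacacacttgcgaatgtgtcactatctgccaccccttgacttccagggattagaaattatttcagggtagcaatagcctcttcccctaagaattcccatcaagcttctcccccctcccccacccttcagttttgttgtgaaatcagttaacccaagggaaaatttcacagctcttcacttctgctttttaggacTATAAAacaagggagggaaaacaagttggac
Il1a, chr2:129309973-129310222: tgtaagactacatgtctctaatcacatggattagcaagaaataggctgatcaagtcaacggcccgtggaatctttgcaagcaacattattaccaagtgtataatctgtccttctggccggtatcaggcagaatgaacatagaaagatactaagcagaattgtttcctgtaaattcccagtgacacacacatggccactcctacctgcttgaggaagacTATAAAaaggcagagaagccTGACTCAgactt
Il1rn, upstream start, chr2:24336610-24336859: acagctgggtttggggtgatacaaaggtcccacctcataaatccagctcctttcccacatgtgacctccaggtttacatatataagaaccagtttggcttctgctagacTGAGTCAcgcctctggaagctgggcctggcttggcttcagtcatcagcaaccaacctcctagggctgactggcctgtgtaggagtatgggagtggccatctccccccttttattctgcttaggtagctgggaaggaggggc
Il1rn, downstream start, chr2:24345041-24345290: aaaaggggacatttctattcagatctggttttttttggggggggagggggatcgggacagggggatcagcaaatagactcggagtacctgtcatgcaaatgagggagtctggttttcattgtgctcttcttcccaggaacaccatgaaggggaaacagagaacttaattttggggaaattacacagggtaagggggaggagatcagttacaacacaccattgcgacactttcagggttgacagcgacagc

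A TATAAA match begins 31 bases before the start of Il1b and 32 bases before that of Il1a. TGANTCA is found 12 bases before the Il1a start and 141 bases before the upstream Il1rn start, and neither motif is in the downstream Il1rn window or in that of Il1b beyond its core promoter box. Of the 12 windows of the 9 genes, 3 held TATAAA (Il1b, Il1a and, on the other strand, Il18) and 2 held TGANTCA. Il1rn has 3 annotated start windows, and UMIs counted per gene do not tell which start was used.

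By cell, Il1b was highest in classical monocyte-like cells, a cluster of 134 cells led by Chil3, S100a9, S100a8, Arg1 and Plac8. Il1b itself was among its 10 leading genes. S100a8 and S100a9 are also on the neutrophil marker list. In barcodes listed once only, a cluster led by S100a8, S100a9 and Chil3 scored highest for neutrophils (1.74) and stayed unnamed. As deposited, 37 entries led by S100a9, S100a8 and Retnlg stood apart from monocyte-like ones. Whether neutrophils are mixed in here was not tested. Levels by cluster are given as a description, with no test. Over the 6 samples the monocyte-like cells held 4561 ± 373 CPM of Il1b (range 3995 to 4946). Below them stood cDC2-like cells (led by Cd209a and Klrd1) with 2334 ± 713 CPM (1471 to 3119, n = 6). An unnamed cluster led by Lyz1, Ear2 and Retnla stood at 2357 ± 650 CPM (1812 to 3077) in the 3 control samples. The ranges of these last 2 overlapped, so no order is read between them, and neither reached the monocyte-like range. Resident macrophage-like cells led by Retnla and F13a1 stood at 1557 ± 169 CPM (1442 to 1751, n = 3), overlapping the lower end of the cDC2-like range.

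Lower down, macrophage-like cells led by Ms4a7 and Gdf15, almost all of them from HFD samples (272 of 283), held 609 to 731 CPM of Il1b. Resident macrophage-like cells led by Cd209f held 156 to 282 CPM over 6 samples, and lipid-associated macrophage-like cells led by Spp1 and Gpnmb, a type known from obese fat, held 95.03 to 575 CPM over 4 samples. These low levels are read against fibroblast-like and T cell-like cells, taken as background. Whether those cells make the gene themselves was not tested. Fibroblast-like cells had 28.5 to 174 CPM and T cell-like cells 60.7 to 1042 CPM over the samples with at least 10 such cells. After thinning every cell to 3000 UMIs, Il1b was found in 96.7% of monocyte-like, 85.8% of Retnla and F13a1, 83.4% of cDC2-like and 83.1% of Lyz1 and Ear2 cells. It was found in 42.4% of Cd209f and 27.9% of Spp1 and Gpnmb cells, against 18.2% of fibroblast-like and 47.5% of T cell-like cells. The median depths before thinning were 6121 UMIs in Cd209f, 16344 in Spp1 and Gpnmb, 6823 in fibroblast-like and 4180 in T cell-like cells. Cd209f cells (95% Clopper-Pearson interval 36.2 to 48.7%) thus lay above fibroblast-like cells (13.4 to 23.9%) but not above T cell-like cells, whose share rests on 40 cells (31.5 to 63.9%). The interval of Spp1 and Gpnmb cells (21.9 to 34.5%) overlapped those of both. By level, Cd209f cells were at 234, Spp1 and Gpnmb cells at 200, fibroblast-like cells at 64.2 and T cell-like cells at 399 CPM over all their cells, the last falling to 236 CPM without HFD 3. These values pool both diets, though 250 of 291 Cd209f cells were control cells and 207 of 231 fibroblast-like cells HFD cells. In HFD samples 1 to 3, fibroblast-like cells stood at 28.5, 64.5 and 65.1 CPM. Cd209f cells (172, 156 and 246 CPM) and Spp1 and Gpnmb cells (95.03, 347 and 178 CPM) lay above them. T cell-like cells lay above both macrophage-like clusters in HFD 3 (1042 CPM) and below both in control 3 (60.7 CPM). With so uneven a background, no Il1b level above it is read for either cluster.

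**Figure D2:**
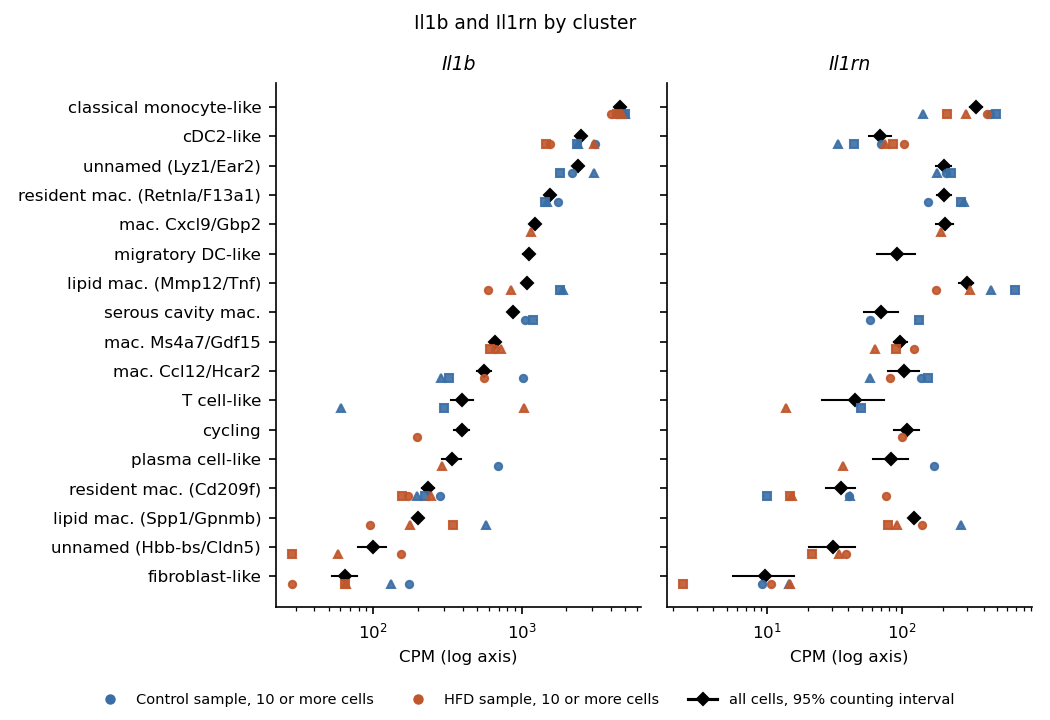
Il1b (left) and Il1rn (right) in CPM on a log axis for the 17 clusters, ordered by Il1b level. Diamonds are all cells of a cluster with the 95% Poisson interval of the count, and coloured points are single samples with at least 10 cells of that cluster (blue control, orange HFD; a T cell-like sample with no Il1rn UMI is not drawn). For Il1b the monocyte-like diamond stands highest and the cDC2-like one second. For Il1rn the monocyte-like diamond is highest, the highest sample point (689 CPM) is in Mmp12 and Tnf cells, and cDC2-like cells stand far lower.

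Il1rn was at 354 CPM over all monocyte-like cells (95% Poisson interval 319 to 392, counting error only), and 336 ± 142 CPM over 6 samples (142 to 496). Lipid-associated macrophage-like cells led by Mmp12 and Tnf held 299 CPM over all their cells (265 to 337) and 410 ± 217 CPM over 4 samples (179 to 689). The 2 clusters overlapped, and which of them was higher depended on whether cells or samples were averaged. In cDC2-like cells Il1rn was at 68.5 CPM, and in fibroblast-like cells at 9.69 CPM. Spp1 and Gpnmb cells held Il1rn at 123 CPM, above the 44.9 CPM of T cell-like cells and the level of fibroblast-like cells. Their Il1b, at 200 CPM, lay above that of fibroblast-like cells and below that of T cell-like cells. The other genes did not all follow them. Il1r2 was highest in cDC2-like cells (52.7 CPM, interval 42.2 to 65.0), followed by monocyte-like cells (33.9 CPM, 23.8 to 47.0), and its sample ranges overlapped between them. Il1a and Pycard were highest in serous cavity macrophage-like cells (178 and 626 CPM), a type led here by Saa3, Slpi, Alox15 and Prg4. Of their 41 cells 29 were control cells, with 19 in control 1, 10 in control 2 and 0 in control 3. HFD samples 1 to 3 held 1, 6 and 5. In control 1 these cells held 88 Il1a and 305 Pycard UMIs. Their part in the low Il1a and Pycard of control 3 was not tested. Nlrp3 was highest in monocyte-like cells (204 CPM), followed by serous cavity cells (154 CPM) and Retnla and F13a1 cells (150 CPM), whose sample ranges overlapped with it.

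A macrophage-like cluster with the interferon-induced genes Cxcl9 and Gbp2 among its leading genes had the highest levels of Casp1 (96.9 CPM), Il18 (38.8 CPM) and Il18bp (61.6 CPM, interval 46.3 to 80.3). Of its 56 cells 34 came from HFD 3. Without that sample its remaining 22 cells stood at 84.5 CPM for Casp1, next to 83.8 CPM in Spp1 and Gpnmb cells, at 39.2 CPM for Il18 and at 96.6 CPM for Il18bp. Casp1 was the most even of the inflammasome genes. It lay between 22.0 CPM in Lyz1 and Ear2 cells and 96.9 CPM, and Spp1 and Gpnmb cells, low in Nlrp3, came second with 84.8 CPM.

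**Figure D3:**
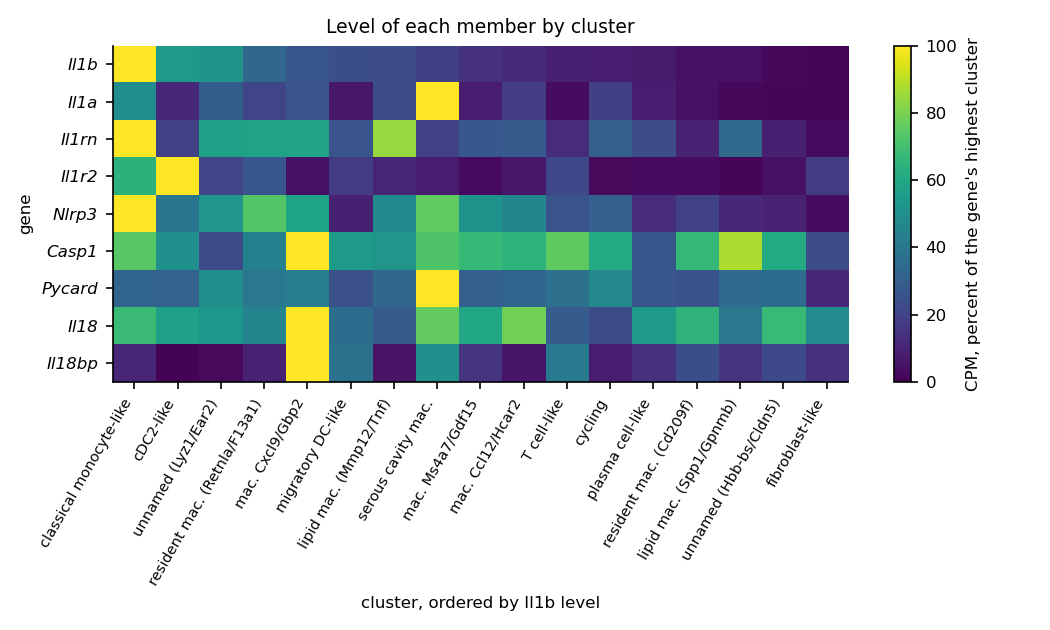
Level of each of the 9 genes in the 17 clusters as a percent of that gene's highest cluster (CPM over all cells of a cluster), clusters ordered by Il1b. Il1b, Il1rn and Nlrp3 peak in monocyte-like cells, Il1r2 in cDC2-like cells, Il1a and Pycard in serous cavity macrophage-like cells, and Casp1, Il18 and Il18bp in the Cxcl9 cluster.

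The genes most like Il1b over the 17 clusters were taken by the correlation of log2(CPM + 10) among 4805 genes, as a description whose points share libraries and depth. They were Pde4b, a phosphodiesterase gene (Pearson r = 0.94), Csrnp1 (0.91), Bcl2a1c (0.90), Gm20645 (0.90) and Ehd1 (0.89), where the median over all genes was -0.06. Among the members Nlrp3 was at 0.79, Il1rn at 0.78, Il1a at 0.72 and Il1r2 at 0.62, while Casp1 was at 0.09 and Il18bp at -0.15. For Il1rn the most alike were Rnf149 (0.92), Slc15a3 (0.90), Ccrl2 (0.88), Prkcd (0.87) and Cd44 (0.86), with a median over all genes of 0.02.

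Il1b UMIs were spread unevenly over cells, but this was not particular to Il1b, which was found unthinned in 72.0% of cells. The 10% of cells with most Il1b UMIs held 52.5% of them in control and 61.4% in HFD, and a single cell held up to 155. The same share was 48.8% and 37.7% for Pycard, 54.4% and 58.8% for Nlrp3, 55.5% and 46.2% for Casp1 and 63.6% and 73.3% for Il1rn. These are raw UMIs of cells of unequal depth. Monocyte-like cells were 6.34% of all cells and held 22.2% of the Il1b UMIs, and cDC2-like cells were 7.38% and held 18.7%. Of the 20 cells with most Il1b UMIs 9 were monocyte-like, and of the 20 with most Il1rn UMIs 9 were lipid-associated macrophage-like. The holders differed between the diets. Lyz1 and Ear2 cells gave 22.0% ± 8.6 of a control sample's Il1b UMIs and 0.44% ± 0.30 of an HFD sample's (SD, n = 3 each), and 134 of their 137 cells were control cells. Ms4a7 and Gdf15 cells gave 0.28% ± 0.30 in control and 25.4% ± 3.4 in HFD. Monocyte-like cells gave 24.3% ± 16.4 and 24.2% ± 5.3. Of a sample's cells, Lyz1 and Ear2 cells were on average 13.5% in control and 0.27% in HFD. Ms4a7 and Gdf15 cells were 1.19% and 24.2%, and monocyte-like cells 8.68% and 5.00%. For Il1rn, Spp1 and Gpnmb cells gave 5.14% ± 8.67 in control and 26.7% ± 10.2 in HFD. Genes that define the clusters differ between the diets, so these shares carry no test.

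**Figure D4:**
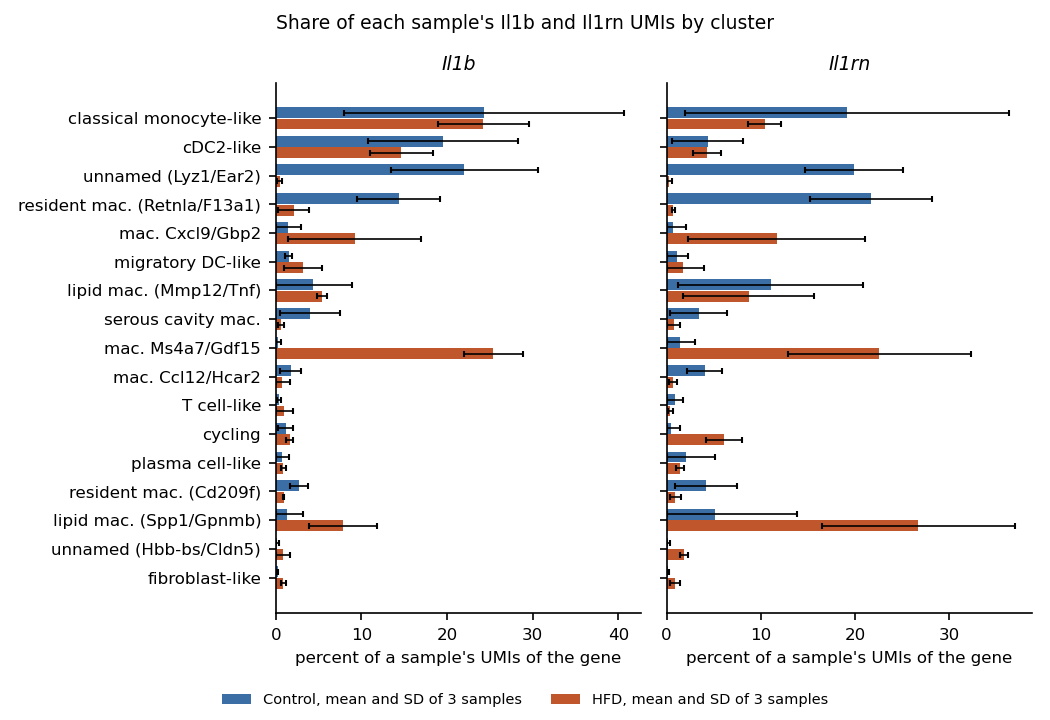
Percent of a sample's Il1b (left) and Il1rn (right) UMIs that lie in each of the 17 clusters, mean and SD of 3 samples per diet (blue control, orange HFD; an error bar that would pass below 0 ends there). In control, Il1b lay mainly in monocyte-like, Lyz1 and Ear2, cDC2-like and Retnla and F13a1 cells (24.3%, 22.0%, 19.6% and 14.4%). In HFD it lay mainly in Ms4a7 and Gdf15, monocyte-like and cDC2-like cells (25.4%, 24.2% and 14.7%). Retnla and F13a1 cells were 14.8% of control cells, and Ms4a7 and Gdf15 cells 24.2% of HFD cells, close to their Il1b shares. These are shares of a sample's own UMIs, and Il1b levels differed between the diets.

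At 3000 UMIs per cell, Il1b was found in 70.3%, 70.4% and 63.8% of control cells and in 39.2%, 39.9% and 52.2% of HFD cells. Every HFD sample lay below every control sample, with means of 68.2% ± 3.8 and 43.8% ± 7.3 (SD, n = 3; two-sided exact permutation test, p = 0.1, the smallest that 3 against 3 samples allow). Il1rn was found in 20.3%, 25.9% and 23.7% of control and 16.1%, 13.99% and 15.8% of HFD cells (exact p = 0.1), and Nlrp3 in 21.7% ± 1.6 and 12.5% ± 1.4 (exact p = 0.1). Casp1 was found in 14.1% ± 0.4 of control and 15.1% ± 1.9 of HFD cells (exact p = 0.5). Thinning left out 34, 44 and 51 shallower cells of control samples 1 to 3 and 7, 9 and 14 of HFD samples. Unthinned, the shares were 83.3% and 62.1% for Il1b and 38.5% and 34.3% for Il1rn, at median depths of 7233.5 and 9735 UMIs.

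Among the 1955 cells of that fixed depth, 13.3% had both Il1b and Il1rn, 41.1% Il1b only, 5.42% Il1rn only and 40.2% neither. Il1rn was found in 24.4% of cells with Il1b and in 11.9% of cells without, and this order held in all 6 samples. Nlrp3 was found in 23.1% and 8.75% of them, again with the same order in all 6 samples. Casp1, by contrast, was found in 14% of cells with Il1b and in 15% of those without, and Pycard in 44.1% and 39.5%. Nlrp3, Pycard and Casp1 were seen together in 1.18% of cells, a share that so shallow a depth limits.

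The balance of Il1b to Il1rn was taken as the ratio of their UMIs in a sample, which needs no library scaling. UMIs of different genes are not on 1 scale of length and capture, so only the change of the ratio is read. It stood at 13.3, 9.10 and 9.26 in control and 3.97, 8.54 and 7.41 in HFD samples. All HFD ratios lay below all control ratios, with HFD 1 lowest by far. On the log2 scale the mean was 3.38 ± 0.31 in control and 2.66 ± 0.59 in HFD, a difference of -0.72 (two-sided exact permutation test, p = 0.1). Without HFD 1 it was -0.38.

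This direction depended on which barcodes were counted. With all entries as deposited the difference was -0.54 (exact p = 0.1). With only the barcodes that 1 sample alone lists (454 control and 580 HFD cells) it turned round, to 0.64 (exact p = 0.1), with ratios of 8.62, 8.51 and 7.24 in control and 9.24, 23.1 and 9.37 in HFD samples. The ratio of 23.1, that of HFD 2, rests on 15 Il1rn UMIs. These barcodes were shallower, with medians of 4145 UMIs in control and 6278 in HFD cells, and 29.7% of the HFD cells among them were fibroblast-like. Averaged over cells, the Il1b share of a cell's summed Il1b and Il1rn UMIs was 86.6% ± 1.6 in control and 76.9% ± 4.7 in HFD (each barcode in 1 sample; exact p = 0.1).

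**Figure D5:**
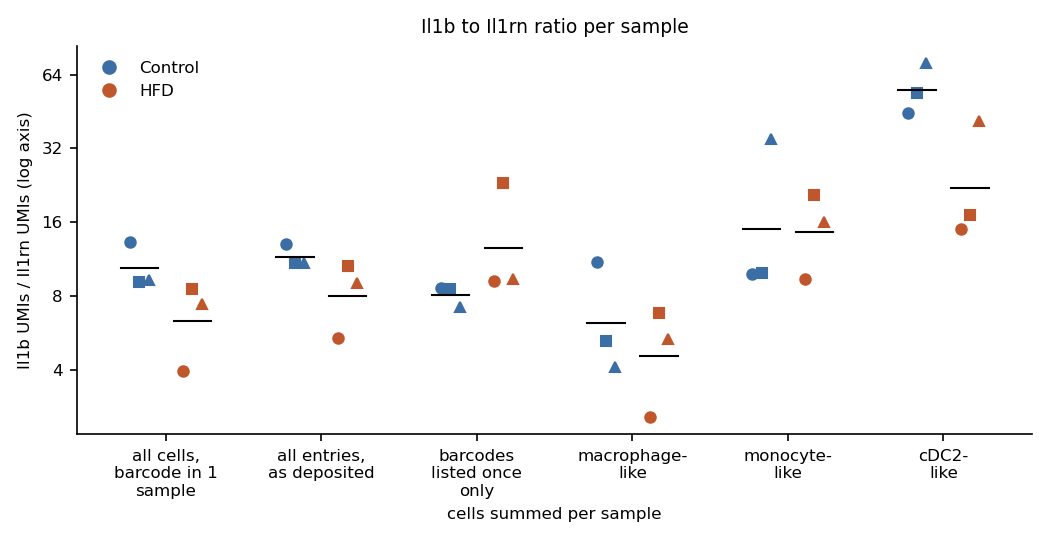
Ratio of Il1b to Il1rn UMIs per sample on a log axis for 3 ways of counting barcodes and for 3 cell classes (blue control, orange HFD; circle, square and triangle for samples 1, 2 and 3; the line is the mean on the log scale). HFD lies below control with each barcode in 1 sample and as deposited, above it with barcodes listed once only, and the diets overlap in macrophage-like and monocyte-like cells.

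The ratio of a cluster's pooled UMIs also varied by cell. It was highest in cDC2-like cells, at 36.6 (95% Clopper-Pearson interval of the count 30.3 to 44.5), followed by 13 (11.7 to 14.5) in monocyte-like and 11.7 (10.3 to 13.4) in Lyz1 and Ear2 cells. Over samples the ranges of 15 to 71.3 in cDC2-like and 9.42 to 34.9 in monocyte-like cells overlapped, and in HFD 2 the order was turned, with 17.1 and 20.6. It was lowest in Spp1 and Gpnmb cells, at 1.62 (1.45 to 1.82), where HFD 1, with 101 of the 211 cells, stood at 0.68 and the other samples with at least 10 cells at 1.94 to 4.41. Without HFD 1 the pooled ratio was 2.78. In fibroblast-like cells, taken above as background, the ratio was 6.62 (3.90 to 12.01), and in T cell-like cells 8.88 (5.28 to 15.9). Whether these cells make either gene was not tested. Without HFD 3 the T cell-like ratio was 4.47. The 2 fibroblast-like samples with enough UMIs, at 2.67 and 4.43, were close to the sample range of Spp1 and Gpnmb cells, and no difference between those clusters is read. The intervals cover counting error only.

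Within macrophage-like cells, 1192 in all, Il1b was again lower in HFD, at 1000, 824 and 851 CPM in control and 358, 543 and 611 CPM in HFD samples. The diets did not overlap (log2 fold change -0.89 ± 0.19 SE, adjusted p = 0.00746). Il1a (-2.25 ± 0.60, adjusted p = 0.0199) and Nlrp3 (-0.73 ± 0.23, adjusted p = 0.0379) were called lower as well. For Il1a the diets overlapped, at 10.7 to 78.4 CPM in control and 7.56 to 20.2 CPM in HFD samples. Il1r2 was also called lower (adjusted p = 0.00648), on 17, 6 and 10 UMIs in control and 6, 0 and 5 in HFD samples, too few to set its fold change closely. Il1rn was not called, with 152 ± 58.6 CPM in control and 111 ± 29.6 CPM in HFD (-0.50 ± 0.27 SE, adjusted p = 0.193). Casp1 stood at 53.9 ± 16.3 and 75.4 ± 2.9 CPM (0.36 ± 0.19 SE, adjusted p = 0.181). Without control 1 Casp1 was called higher (0.68, adjusted p = 0.0107), Il1rn lower (-0.75, adjusted p = 0.0263) and Il18bp higher (1.66, adjusted p = 0.0373), and without control 3 Pycard was called lower (-0.50, adjusted p = 0.0245).

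In these sums 4 of 9 members were called, all lower, where 29.1% of all 8909 genes were called, 13% higher and 16.1% lower. As deposited 6 of 9 were called lower, adding Il1rn and Pycard, where 22.1% of all genes were called, 9.65% higher and 12.5% lower. The call of Nlrp3 ended when any of control 1, control 2, HFD 1 and HFD 2 was dropped (adjusted p = 0.0554 to 0.150), and with the replicate block (adjusted p = 0.0926). For Il1a this held for control 1, control 2, HFD 1 and HFD 3 (adjusted p = 0.0637 to 0.0922). In barcodes that 1 sample alone lists, Il1b was at -0.49 (adjusted p = 0.251) and 1 member was called, Il1rn (-0.94, adjusted p = 0.0148). Over 15 alternatives Il1b ran from -1.57 to -0.49 and Nlrp3 from -1.38 to -0.46. The class also changed with the clustering. At resolution 0.5 a cluster of 288 cells led by Retnla, Lyz1 and Ear2 was macrophage-like. Clustered with the 9 genes, 304 cells with Ms4a7 and Gdf15 among their leading genes stayed unnamed. In the clustering used throughout, the Lyz1 and Ear2 cells, 134 of 137 from control, stood outside the class. Different clusters made it up in the 2 diets. They were mainly Cd209f and Retnla and F13a1 cells in control and Ms4a7 and Gdf15 and Spp1 and Gpnmb cells in HFD. Of the 19 immediate early genes 14 were called lower in the same sums. The Il1b to Il1rn ratio stood at 11.01, 5.23 and 4.09 in control and 2.58, 6.79 and 5.35 in HFD samples, which overlapped (log2 difference -0.44, exact p = 0.6; -0.03 without control 1 and -0.04 without HFD 1).

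Within the Cd209f cluster, the one macrophage-like cluster with at least 10 cells in all 6 samples, Il1b was at 282, 223 and 196 CPM in control and 172, 156 and 246 CPM in HFD samples, which overlapped. In Mmp12 and Tnf cells it was at 1816 and 1897 CPM in control 2 and 3 and at 595 and 854 CPM in HFD 1 and 3, with 10 to 18 cells each, so those diets did not overlap, but no test was run.

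Monocyte-like and cDC2-like cells, with at least 15 cells in every sample, were fitted as a comparison added after the data were seen. Monocyte-like cells held nearly as much Il1b in both diets, at 4378, 4940 and 4946 CPM in control and 3995, 4395 and 4713 CPM in HFD samples. The diets overlapped, and the log2 fold change of -0.16 ± 0.11 SE did not pass the test (adjusted p = 0.641). It lay between -0.21 and -0.09 when each sample was left out. Of the members 0 of 6 tested were called, where edgeR called 6 of 2015 genes (0.298%; 0.0993% higher, 0.199% lower), 9 without control 1, 4 without control 2 and 1 without any other sample. Of the 6 members 1, Nlrp3 (-0.59 ± 0.22 SE), had an unadjusted p under 0.05. Their Il1b to Il1rn ratio stood at 9.80, 9.96 and 34.9 in control and 9.42, 20.6 and 15.98 in HFD samples (log2 difference -0.04, exact p = 0.8).

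In cDC2-like cells Il1b was at 3119, 2370 and 2391 CPM in control and at 1558, 1471 and 3093 CPM in HFD samples, with HFD 3 among the control values. The log2 fold change was -0.45 ± 0.23 SE (adjusted p = 0.321), and -0.88 (adjusted p = 0.00575) without HFD 3. With any other sample left out it lay between -0.53 and -0.25 and was not called (adjusted p = 0.337 to 0.678). Il1rn stood the other way, at 69.7, 43.8 and 33.5 CPM in control and 104, 85.9 and 74.7 CPM in HFD samples (0.64 ± 0.31 SE, adjusted p = 0.282). It rests on 7 to 39 UMIs per sample. The ratio of the 2 genes stood at 44.7, 54.1 and 71.3 in control and 15, 17.1 and 41.4 in HFD samples, without overlap (log2 difference -1.34, exact p = 0.1). Of the members 0 of 6 tested were called by edgeR, 0 of them at an unadjusted p under 0.05, where 6.81% of 2437 genes were called, 3.9% higher and 2.91% lower. Those 166 calls became 59 without HFD 1, 89 without control 2, 95 without control 3 and 104 without HFD 2.

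Other genes of the pathway came from lists of ligands, receptors, sensors, caspases, signalling and priming genes, of which 58 were found and 45 tested in whole-sample sums. They fell more often than they rose, with 21 lower, 2 higher and 22 not called, where 17.2% of all genes were lower and 15.2% higher, and a median log2 fold change of -0.44, where that of all genes was -0.02. The 4 with the smallest p were all lower. They were Il1rl1, the receptor of interleukin 33 (-2.46 ± 0.20 SE, adjusted p = 0.000121), Mefv, which encodes the inflammasome sensor pyrin (-2.50 ± 0.32, adjusted p = 0.000721), Nfkbiz, an NF-kB regulator (-0.97 ± 0.13, adjusted p = 0.000759), and Nfkb1 (-0.65 ± 0.09, adjusted p = 0.00114). Against the same 17.2% of all genes, among 12 sensors and partners 7 were lower, among 14 genes of receptor signalling 6, among 8 priming and feedback genes 4, and among 6 caspases and pore proteins 2. Of the 4 receptors tested 2 were lower, Il1rl1 and Sigirr (-1.80), and 1 was higher.

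The 2 that rose were chosen for mention after their values were seen. They were Il33, the gene of an alarm cytokine of the same family (3.01 ± 0.54 SE, adjusted p = 0.00328), and Il1r1, the signalling receptor of interleukin 1 (2.34 ± 0.46 SE, adjusted p = 0.00528). Fibroblast-like cells, most of them HFD cells, held 82.8% of the Il33 UMIs and 84.0% of the Il1r1 UMIs, at 32.1 and 50.9 CPM. In macrophage-like sums Il33 and Il1r1 did not pass the filter on low counts, and of 41 pathway genes tested 13 were lower and 0 higher, where 16.1% of all genes were lower and 13% higher.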

How the data were processed

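Single-cell RNA of 3 control and 3 HFD samples was deposited by the authors as whole-number UMI counts per gene and cell, not normalized. Cell Ranger, Seurat 2.4 and build mm9 are listed, with no role, in the submitters' processing notes. No source used here says how barcodes were called. The 9 genes and all lists were chosen with earlier results of these data known.

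Entries with under 200 detected genes or over 10% mitochondrial UMIs were removed (109 of 5511). Each barcode was kept in the sample with most UMIs. Counts scaled to 10000 per cell and log-transformed were clustered without the 9 genes (scanpy 1.11.5, 2000 variable genes, 30 components, 20 neighbours, leidenalg 0.10.2, resolution 1.0). Clusters were named "-like" from marker lists by thresholds set after seeing the data; no doublets were removed. Sums per sample were tested with edgeR 4.0.16 (quasi-likelihood, TMM, filterByExpr; R 4.3.3); the threshold was 0.05 after Benjamini-Hochberg adjustment over the genes tested. Ratios and shares of cells used two-sided exact permutation tests over 20 arrangements. Monocyte-like and cDC2-like sums, with at least 15 cells a sample where 20 had been planned, were added after seeing the data. Named genes are the 9 members, the 4 pathway genes with the smallest p, and the 5 genes most like Il1b and Il1rn. Genes overlapping others are uncertain, since use of strand in counting is not stated. On data simulated from the whole-sample sums, the test recovered 60.3% of 2-fold and 95.6% of 4-fold changes, and 6.38% of calls were false. For macrophage-like sums 7.3% of calls were false. The simulation drew samples independently and changed a far smaller share of genes than the 32.4% called in the whole-sample sums. Its shares therefore need not hold for the real data. Alternatives covered barcodes, DESeq2, scaling, filters, the replicate block, clustering, thinning and each sample left out.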

Additional observations from a re-analysis of the deposited data

How the results depend on the processing

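Of 370 values recomputed for 27 results, 307 kept their direction and their side of the threshold or stayed near their value, 20 lost a call, 17 gained one, 9 changed sign and 17 moved further. In whole-sample sums Il1b and Nlrp3 kept direction and call under all 14 alternatives, and Il1r2 under the 13 that gave a value for it. Counting only barcodes that 1 sample lists gave 1940 genes, 3 members and 14 pathway genes called, and put Il18 at 0.41; in macrophage-like sums it gave 1152 genes and 1 member called, with Il1b at -0.49, Il1rn at -0.94, Nlrp3 at -0.67 and Pycard at 0.29. Under it the balance was 0.64 and, in macrophage-like sums, 0.42. As deposited, Pycard was at -0.34 in whole-sample and -0.32 in macrophage-like sums, and Il1rn at -0.41 in the latter. With no filter on low counts, Pycard was at -0.40 in whole-sample sums, and Il1rn at -0.43 and Casp1 at 0.43 in macrophage-like sums. Casp1 was at 0.43 with library totals only and at 0.39 without fibroblast-like cells. DESeq2 called 1725 genes in macrophage-like sums, with Il1a at -2.17, and resolution 0.5 put Il1rn there at -0.84. As a mean over cells, the Il1b share moved by -9.70 and, in macrophage-like cells, by -10.2 percentage points. The difference in the share of cells with Il1rn was -4.22 not thinned, -5.41 as deposited and -10.99 with barcodes that 1 sample lists. The cause of these changes was not tested. With the replicate block Il1rn was at -0.77 in whole-sample sums and Nlrp3 at -0.73 in macrophage-like sums, both no longer called. In these sums 2416 and 1821 genes were called, respectively. Deviations of same-numbered samples correlated at -0.16, -0.07 and -0.12 in whole-sample sums and at -0.20, 0.02 and -0.14 in macrophage-like sums. Taken around the mean of only 3 samples a diet, they cannot decide whether the numbers pair the samples.

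With each sample left out in turn, whole-sample sums called 2233 to 3333 genes and 3 to 6 members, with Il1a at -2.51 to -1.47, Il1rn at -0.93 to -0.59, Casp1 at 0.22 to 0.42, Pycard at -0.57 to -0.31, Il18 at -0.53 to 0.074 and Il18bp at 0.24 to 1.27. Macrophage-like sums called 1454 to 2596 genes and 2 to 5 members, with Il1a at -2.76 to -1.67, Il1rn at -0.75 to -0.16, Nlrp3 at -0.92 to -0.46, Casp1 at 0.21 to 0.68, Pycard at -0.50 to -0.042, Il18 at -0.60 to 0.053 and Il18bp at -0.21 to 1.66. An arm left with 2 samples shares its spread with the other. Depth limits Il1r2, Il18bp and Il18, with 208, 250 and 469 UMIs.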
